A study of Homo sapiens with 6 samples.

Results

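The genes described here are 48 genes of G2 and mitosis measured in the established human glioblastoma line U251. They were chosen by name: each is the row of the deposited tables whose gene symbol equals a name on a fixed list, and all 48 were found, each once, among 42307 listed genes. Cells carrying a STING overexpression plasmid (STING-OE, 3 libraries) were set against cells carrying a negative control plasmid (NC, 3 libraries). Both groups were wild-type U251 cells in medium with serum, were given 1 ug of plasmid per well and were harvested on day 3. The cells are those of 1 line, carrying plasmid by transfection. Whether each library came from its own culture is not stated in the labels, so a p-value here speaks only of the variation among these 6 libraries, part of which may be technical.

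A cell enters mitosis when the kinase CDK1, bound to cyclin B, is switched on by CDC25 phosphatases. Polo-like and Aurora kinases then build the spindle, kinesin motors move microtubules and chromosomes, and kinetochores attach the chromosomes to the spindle. The spindle checkpoint holds back the ubiquitin ligase APC/C and its activator CDC20 until all chromosomes are attached, after which cyclin B and securin are destroyed and the cell divides. Most of these genes are transcribed in a wave late in the cell cycle, under the repressor complex DREAM and the activators B-MYB and FOXM1. A promoter element with the letters TTTGAA, the cell-cycle genes homology region (CHR), and CCAAT boxes are known to take part in that timing. In RNA from whole cultures, fewer cells in G2 and mitosis and less of the RNA per cell cannot be told apart.

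The promoters of the 4 members that passed the test below, and of CCNB2 as a textbook example of the CHR, are shown because they carry, or in 1 case lack, the letters that most of the list shares. Each stretch is read 5′ to 3′ on the gene's plus strand from RefSeq (GRCh38.p14) and holds 130 bases before the annotated start and 20 bases from the start on. The capitals mark TTTGAA and the CCAAT box, which reads ATTGG on the other strand. The stretches lie at chr16:23678759-23678908 for PLK1, chr11:62123881-62124030 for INCENP, chr1:43358851-43359000 for CDC20, chr5:138178982-138179131 for KIF20A and chr15:59105016-59105165 for CCNB2.
PLK1: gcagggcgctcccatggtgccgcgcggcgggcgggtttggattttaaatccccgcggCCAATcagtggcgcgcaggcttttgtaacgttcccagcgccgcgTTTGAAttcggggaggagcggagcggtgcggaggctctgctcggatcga
INCENP: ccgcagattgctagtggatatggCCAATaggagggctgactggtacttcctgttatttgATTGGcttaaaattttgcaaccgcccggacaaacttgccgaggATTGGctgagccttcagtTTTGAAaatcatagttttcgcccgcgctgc
CDC20: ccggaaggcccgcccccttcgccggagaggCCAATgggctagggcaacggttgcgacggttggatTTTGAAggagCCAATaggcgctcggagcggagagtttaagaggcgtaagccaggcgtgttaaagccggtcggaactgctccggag
KIF20A: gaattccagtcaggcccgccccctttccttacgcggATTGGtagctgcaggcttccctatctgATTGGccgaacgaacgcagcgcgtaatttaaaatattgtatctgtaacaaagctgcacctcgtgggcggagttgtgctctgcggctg
CCNB2: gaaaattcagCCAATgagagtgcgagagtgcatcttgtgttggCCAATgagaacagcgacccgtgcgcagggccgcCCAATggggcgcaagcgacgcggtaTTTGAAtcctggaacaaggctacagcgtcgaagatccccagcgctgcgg

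RefSeq windows of 300 bases (250 before the start and 50 after it) were found for 41 members, with 51 windows in all because some genes have several starts. The letters TTTGAA or TTCGAA, searched on both strands, were present in 35 of the 51 windows, or 68.6%, against 16.4% of all 35116 windows. CCAAT on either strand was present in 39 windows, or 76.5%, against 34.6% of all windows, and both motifs in 30, or 58.8%, against 6.38%. A CHR and a CCAAT match can share at most 1 letter. Between 40 bases before and 10 bases after the start, a stretch chosen after the positions were seen, CHR letters were found in 45.1% of the members' windows and 2.92% of all windows. PLK1 has TTTGAA 29 bases before the start and CCNB2 has it 29 bases before the start as well. It lies 10 bases before the start in INCENP and 65 bases before it in CDC20. The window of KIF20A holds neither TTTGAA nor TTCGAA but has ATTGG at 94 and 67 bases before the start. The median log2 fold change, STING-OE over NC, was −0.12 for the 32 members with CHR letters in a window and −0.13 for the 9 members with windows but without these letters. The RefSeq starts of PLK1, KIF20A, INCENP and CCNB2 lie inside the deposited gene models, which begin further upstream. The distance is larger for PLK1 and KIF20A than for INCENP and CCNB2.

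The libraries were deep, with 71498790 to 76566375 counts each, and the members' mean level in NC cells ran from 27.8 CPM (CENPA) to 799.9 CPM (TOP2A), in counts scaled to library size by TMM factors. STING1, the gene on the plasmid, was at 56.3, 54.7 and 47.3 CPM in STING-OE libraries 1, 2 and 3, against 36.2, 37.1 and 31.2 CPM in NC libraries 1, 2 and 3, without overlap (log2 fold change 0.60, edgeR adjusted p = 0.00221). The 9 glioma and astrocyte markers were led by VIM, CD44, EGFR, NES and SOX2, while S100B and OLIG2 had 4 to 25 counts per library. They summed to 4139 to 4209.9 CPM (by total counts) in STING-OE and 4253 to 4382 CPM in NC libraries, and among them GFAP fell, at 21.5 ± 3.88 CPM in STING-OE and 39.1 ± 3.98 CPM in NC libraries (SD, n = 3 each, edgeR adjusted p = 0.033). Markers of immune cells summed to 2.81 to 5.40 CPM in STING-OE and 3.56 to 10.01 CPM in NC libraries, and epithelial markers to 0.901 to 3.71 CPM in STING-OE and 0.67 to 2.15 CPM in NC libraries. The endothelial list summed to 20.5 to 24.6 CPM in STING-OE and 20.6 to 22.5 CPM in NC libraries, nearly all of it KDR. Genes were called at an adjusted p under 0.05 in edgeR (quasi-likelihood F test, Benjamini-Hochberg over 21679 genes). By this rule 193 genes were lower and 131 higher with the STING plasmid, or 138 and 246 when libraries were scaled to total counts alone.

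Most of the 48 members had a slightly lower mean level in STING-OE cells than in NC cells, and the difference was small for each gene. All 48 members passed the filter on low counts. Of these 4 fell (PLK1, INCENP, CDC20 and KIF20A), 0 rose and 44 did not pass the test. The 4 make up 8.33% of the members, where 0.89% of all tested genes were called lower and 0.604% higher. At an unadjusted p under 0.05, edgeR had 25 members lower, or 52.1%, and 0 higher, against 7.2% lower and 7.17% higher of all tested genes. DESeq2 called 15 members lower and 0 higher, where it called 4.26% lower and 3.24% higher of the 12310 genes to which it gave an adjusted p. The limma-voom fit called 2 lower (INCENP and PLK1) and 0 higher, where it called 0.364% lower and 0.268% higher of all tested genes. Among genes within the members' range of CPM, edgeR called 1.91% lower. The estimate was negative for 43 members and the median log2 fold change was −0.12, where the median over all tested genes was 0.00. In 24 members, or 50.0%, every STING-OE library lay below every NC library, against 9.73% of all tested genes and 13.5% of the 7364 genes within the members' range of CPM. No member had all STING-OE libraries above all NC libraries, where 10.1% of all genes did. The members were picked with earlier results of these data known, so these shares describe the list and are not independent support for its direction.

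The number of members called changed when 1 library was left out, which also leaves fewer libraries to test with. It was 0 without NC library 1, 2 or 3, and 8, 1 and 1 without STING-OE library 1, 2 or 3, where 0.115%, 0.115%, 0.279%, 2.12%, 0.208% and 0.448% of the genes tested in each fit were called lower. At an unadjusted p under 0.05, edgeR had 18, 27 and 17 members lower without NC library 1, 2 or 3, against 5.71%, 5.05% and 5.99% of the genes tested in each fit. The median stayed between −0.14 and −0.10 in these 6 fits. The count was also 3 with scaling to total counts alone (0.637% of all genes lower), 10 with a stricter filter on low counts (2.75% of 14979 genes), 0 with limma-trend on FPKM (0.0138%) and 0 with the replicate number as a block (0.3%). At an unadjusted p under 0.05, limma-trend on FPKM had 17 members lower, against 5.34% of all tested genes, and edgeR with the block had 22, against 6.28%. Combined with a GC and length correction, the block gave 1 (0.277%).

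**Figure D1:**
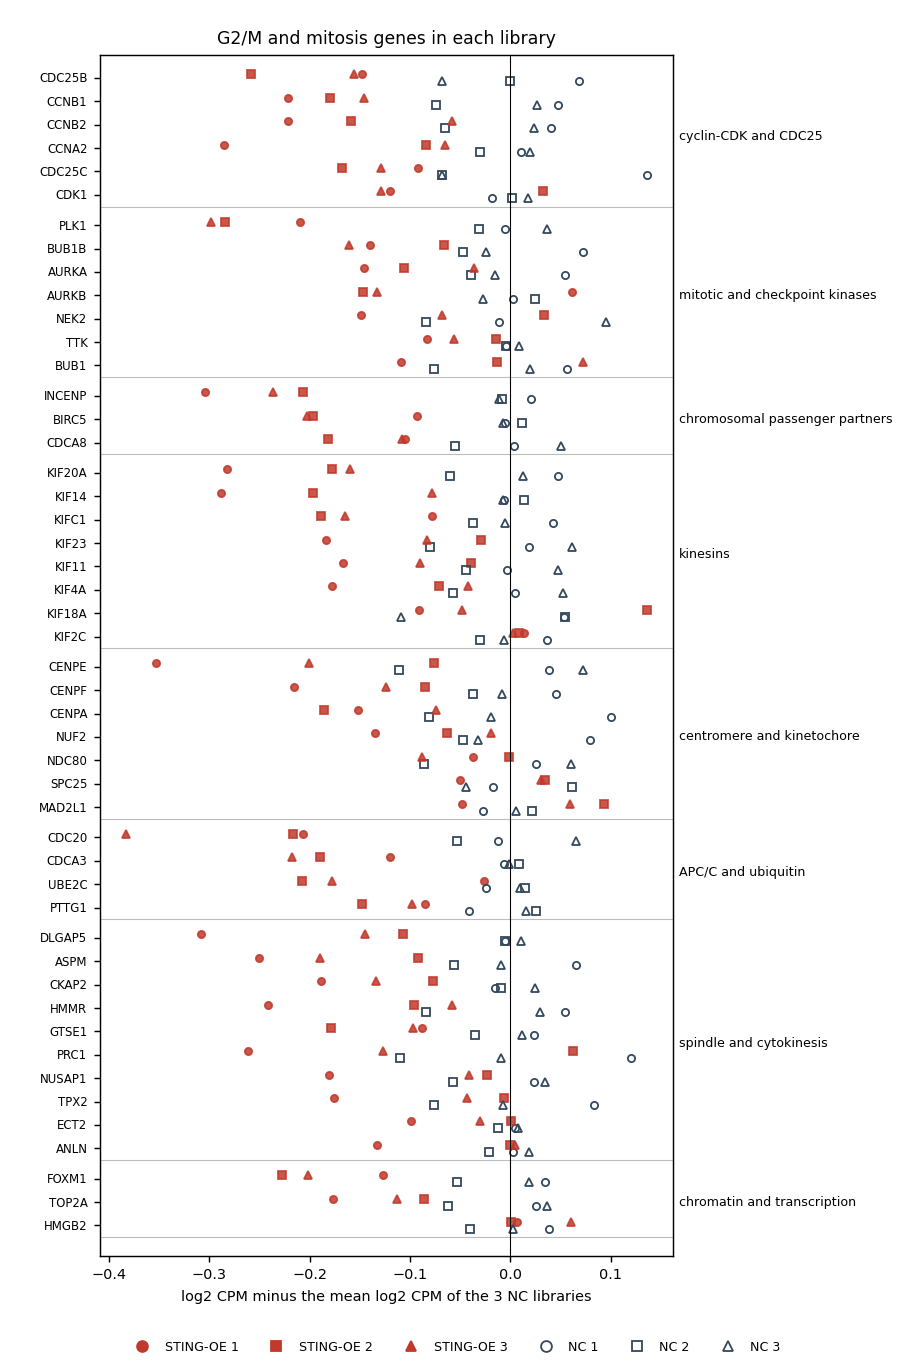
Log2 CPM of each of the 48 members in each library, minus the mean of the 3 NC libraries (horizontal axis), with genes grouped by role and ordered within a role by fold change. Red filled symbols are STING-OE libraries, open symbols NC libraries, and most red symbols lie left of 0, with STING-OE library 1 often the lowest.

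The master regulators of mitotic entry had lower mean levels in STING-OE cells but did not pass the test. Of the 6 cyclin, CDK and CDC25 genes 0 fell and 0 rose, all 6 estimates were negative, and the median log2 fold change was −0.14. At an unadjusted edgeR p under 0.05, 4 of the 6 were lower and 0 higher, against 7.2% and 7.17% of all tested genes. DESeq2 called 2 lower, where it called 4.26% of genes lower. CCNB1, cyclin B1, was at 211, 218 and 223 CPM in STING-OE libraries 1, 2 and 3, against 255, 234 and 250.8 CPM in the NC libraries. The groups did not overlap, and the log2 fold change was −0.18 (SE 0.046, edgeR adjusted p = 0.0621). CDC25B, a phosphatase that activates CDK1, was at 139, 128 and 138 CPM in STING-OE libraries and at 161, 153 and 147 CPM in NC libraries. Its groups did not overlap either (log2 fold change −0.19, SE 0.050, edgeR adjusted p = 0.0779). CDK1 itself had a log2 fold change of only −0.07 (SE 0.051, edgeR adjusted p = 0.6), with 143 CPM in STING-OE library 2, above all NC libraries. CCNA2, CCNB2 and CDC25C had log2 fold changes of −0.14, −0.15 and −0.13. CCNA2 shares 578 bases with EXOSC9, a model on the opposite strand counted 4129 times on average in STING-OE and 3560.3 times in NC libraries, so its value is uncertain.

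PLK1, the polo-like kinase that drives centrosome maturation and mitotic entry, fell by 16.7% with the STING plasmid. It lies on the plus strand of chromosome 16 between 23677656 and 23690366. Its level was 101, 95.97 and 95.0 CPM in STING-OE libraries 1, 2 and 3, against 116, 114 and 119.9 CPM in NC libraries 1, 2 and 3. The groups were well apart, with means of 97.4 ± 3.24 CPM in STING-OE and 117 ± 2.75 CPM in NC libraries (SD, n = 3 each). On the log2 scale the difference was −0.26 (SE 0.047, edgeR adjusted p = 0.0116). When 1 library was left out the fold change lay between −0.29 and −0.25. The gene passed without STING-OE library 1 (adjusted p = 0.00644), and its adjusted p was 0.0773, 0.0558 and 0.078 without NC library 1, 2 or 3 and 0.0514 and 0.0553 without STING-OE library 2 or 3.

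Of 7 mitotic and checkpoint kinases 1, PLK1, fell, 0 rose and 6 did not pass, with a median log2 fold change of −0.07 and negative estimates throughout. BUB1B, which encodes the checkpoint protein BUBR1, was at 101, 106 and 99.7 CPM in STING-OE libraries and at 117, 108 and 109.5 CPM in NC libraries. These did not overlap (log2 fold change −0.12, SE 0.050, edgeR adjusted p = 0.255). AURKA, the Aurora kinase of the spindle poles, had a log2 fold change of −0.10 (edgeR adjusted p = 0.374). The checkpoint kinases TTK and BUB1 had values of −0.05 and −0.02, and the centrosomal kinase NEK2 −0.06. For AURKB, the kinase of the chromosomal passenger complex, the level was 88.3, 76.5 and 77.2 CPM in STING-OE libraries 1, 2 and 3, against 84.8, 86.1 and 83.1 CPM in NC libraries 1, 2 and 3. STING-OE library 1 was the highest of all 6 and STING-OE libraries 2 and 3 the lowest. Its log2 fold change was −0.07 (edgeR adjusted p = 0.661).

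Of the 3 partners of AURKB in the passenger complex 1 fell, 0 rose and 2 did not pass, with a median log2 fold change of −0.16. INCENP, the scaffold that holds the complex together (chromosome 11, 62123998 to 62153163, plus strand), fell by 15.8%. It was at 98.3, 105 and 103 CPM in STING-OE libraries 1, 2 and 3, against 123, 121 and 120.4 CPM in the NC libraries. The NC libraries differed little among themselves, and the means were 102 ± 3.55 CPM in STING-OE and 121 ± 1.49 CPM in NC libraries (SD, n = 3 each), a log2 difference of −0.25 (SE 0.046, edgeR adjusted p = 0.0143). INCENP was called without STING-OE library 1, 2 or 3 (adjusted p of 0.0165, 0.0307 and 0.0486) and not without NC library 1, 2 or 3 (0.099, 0.0849 and 0.0676). It lost its call after correction for GC content and length (log2 fold change −0.18, adjusted p = 0.0795). BIRC5, survivin, was at 129, 120.0 and 119 CPM in STING-OE libraries and at 137, 139 and 137 CPM in NC libraries (log2 fold change −0.16, edgeR adjusted p = 0.0978). CDCA8, borealin, had a log2 fold change of −0.13 (edgeR adjusted p = 0.196). For both genes the groups did not overlap.

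Of the 4 members that activate, work with or are degraded through the APC/C, the activator CDC20 fell and 3 did not pass. CDC20 (chromosome 1, 43358981 to 43363203, plus strand) was at 158, 157 and 140.2 CPM in STING-OE libraries 1, 2 and 3, against 181, 176 and 191 CPM in the NC libraries. The lowest value was that of STING-OE library 3, and the groups did not overlap. Its means were 152 ± 10.2 CPM in STING-OE and 183 ± 7.72 CPM in NC libraries (SD, n = 3 each), a fall of 16.9% (log2 fold change −0.27, SE 0.054, edgeR adjusted p = 0.0216). CDC20 passed without STING-OE library 1 (adjusted p = 0.0167). It did not pass without STING-OE library 2 or 3 (0.0524 and 0.092), without NC library 1, 2 or 3 (0.11, 0.0716 and 0.15), or after the correction for GC content and length (log2 fold change −0.21, adjusted p = 0.0585).

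CDCA3, an adaptor of another ubiquitin ligase that is itself degraded through the APC/C, was at 44.2, 42.1 and 41.3 CPM in STING-OE libraries. It was at 47.8, 48.3 and 47.96 CPM in NC libraries, so the NC libraries were nearly equal and the groups apart (log2 fold change −0.18, SE 0.054, edgeR adjusted p = 0.127). The ubiquitin-conjugating enzyme UBE2C and the securin gene PTTG1 had log2 fold changes of −0.14 and −0.11, with edgeR adjusted p of 0.232 and 0.272. The median of the 4 genes was −0.16, and in all 4 the STING-OE libraries lay below the NC libraries, for UBE2C by the least, with 106.7 CPM in STING-OE library 1 and 106.9 CPM in NC library 1.

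**Figure D2:**
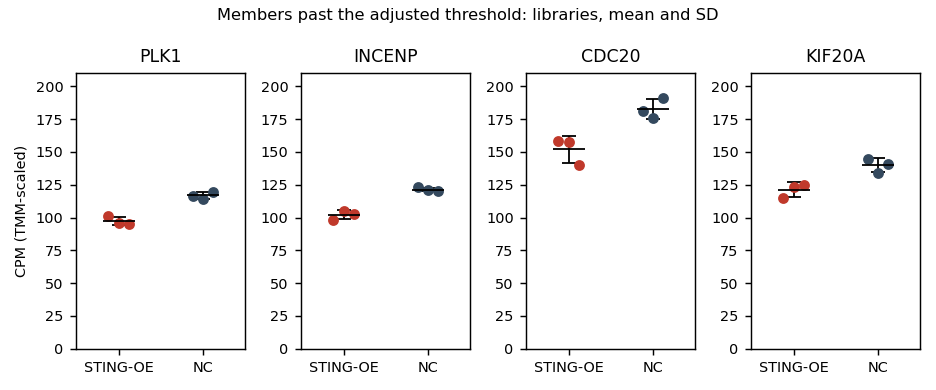
CPM of the 4 called members in each library (points), with the group mean and SD (bars), STING-OE on the left and NC on the right of each panel. In each panel every STING-OE point lies below every NC point, and the means differ by 13.3% to 16.9%.

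Of the 8 kinesins 1 fell, 0 rose and 7 did not pass, with a median log2 fold change of −0.10. KIF20A, a motor of the central spindle (chromosome 5, 138178719 to 138187723, plus strand), was at 115, 124 and 125 CPM in STING-OE libraries 1, 2 and 3, against 144, 134 and 141 CPM in the NC libraries. The groups did not overlap, and the means were 121 ± 5.50 CPM in STING-OE and 139.9 ± 5.27 CPM in NC libraries (SD, n = 3 each), a fall of 13.3%. The log2 fold change was −0.21 (SE 0.050), and the edgeR adjusted p of 0.0499 lay just inside the threshold.

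The call of KIF20A was lost without any 1 of the libraries (adjusted p of 0.0596 to 0.237) and with scaling to total counts alone (0.0907). KIF20A also overlaps CDC23, an APC/C subunit on the opposite strand, by 74 bases at its end, and the counting is not stated to use strand. CDC23 was at 80.7 ± 4.86 CPM in STING-OE and 75.0 ± 2.02 CPM in NC libraries (edgeR adjusted p = 0.4). Summed with the whole count of CDC23, KIF20A had a log2 fold change of −0.09 (edgeR adjusted p = 0.432). This sum takes in all reads of CDC23, whose mean was higher in STING-OE cells, and not only those of the 74 shared bases. It therefore cannot show whether reads of the overlap changed the value of KIF20A.

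KIF14, which acts in cytokinesis, was at 76.2, 81.2 and 88.2 CPM in STING-OE libraries, against 92.6, 93.9 and 92.6 CPM in NC libraries. These groups did not overlap (log2 fold change −0.19, SE 0.055, edgeR adjusted p = 0.109). KIFC1, a minus-end motor that clusters centrosomes, had a log2 fold change of −0.14. The spindle motor KIF11, the midzone motor KIF23 and the chromokinesin KIF4A each had a value of −0.10, with groups that overlapped, and KIF4A shares 411 bases with the opposite-strand model PDZD11. The microtubule depolymerase KIF2C was nearly even across libraries, with 216, 215 and 214 CPM in STING-OE and 219, 209 and 213 CPM in NC libraries (log2 fold change 0.01, SE 0.042). KIF18A, which limits chromosome oscillation, had a log2 fold change of 0.00 with a larger SE of 0.068.

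Of the 7 centromere and kinetochore genes 0 fell and 0 rose in the edgeR test. An unadjusted edgeR p under 0.05 was found for 2, both lower, where 7.2% of all tested genes were lower. DESeq2 called 2 lower, where it called 4.26% of genes lower. The median log2 fold change was −0.07. CENPF, a large kinetochore protein of G2 and mitosis, was at 517, 566 and 551 CPM in STING-OE libraries, against 620.0, 585 and 597 CPM in NC libraries. The groups were apart (log2 fold change −0.14, SE 0.045, edgeR adjusted p = 0.141). CENPE, the kinetochore motor, was at 77.0, 93.2 and 85.5 CPM in STING-OE libraries, against 101, 91.0 and 103 CPM in NC libraries. STING-OE library 2 lay above NC library 2, so the groups overlapped (log2 fold change −0.21, SE 0.069, edgeR adjusted p = 0.168). The NDC80 complex, which binds microtubules, had values of −0.04 for NDC80, −0.07 for NUF2 and 0.00 for SPC25. The checkpoint gene MAD2L1 was the member with the highest estimate, 0.04 (SE 0.050), and CENPA, the centromeric histone H3 variant, had −0.14. CENPA shares exons with the more highly counted model SLC35F6 on the same strand, so its value is uncertain.

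The 10 spindle and cytokinesis genes all had negative estimates, with a median log2 fold change of −0.11, but 0 fell and 0 rose in edgeR. At an unadjusted edgeR p under 0.05, 5 were lower and 0 higher, against 7.2% and 7.17% of all tested genes. DESeq2 called 3 lower, where it called 4.26% of genes lower. ASPM, a protein of the spindle poles, was at 254, 283 and 265 CPM in STING-OE libraries, against 316, 290.3 and 299.8 CPM in NC libraries (log2 fold change −0.18, SE 0.050, edgeR adjusted p = 0.0954). DLGAP5, which stabilises kinetochore fibres, was at 79.4, 91.2 and 88.9 CPM in STING-OE libraries, against 97.9, 97.9 and 98.9 CPM in NC libraries (log2 fold change −0.18, SE 0.054, edgeR adjusted p = 0.11). For both genes STING-OE library 1 was the lowest and no STING-OE library reached an NC library. The microtubule-associated genes CKAP2, HMMR and GTSE1 had values of −0.13, −0.13 and −0.12.

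ECT2, the exchange factor that starts the cleavage furrow, and ANLN, a scaffold of the contractile ring, were nearly level between the groups at −0.04 each. TPX2, an activator of AURKA, and NUSAP1, which stabilises spindle microtubules, had −0.07 and −0.08. PRC1, the bundler of midzone microtubules, had the largest SE of the 48 members, at 161, 201 and 176 CPM in STING-OE and 209, 178 and 191 CPM in NC libraries (log2 fold change −0.11, SE 0.088). It overlaps over nearly its whole length a same-strand model, AC068831, counted 8631 times on average in STING-OE and 8305 times in NC libraries, so the level of PRC1 is uncertain.

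FOXM1, the transcription factor that drives many genes of this list, was at 243, 227 and 231 CPM in STING-OE libraries, against 272, 256 and 269 CPM in NC libraries. The groups did not overlap, and with a log2 fold change of −0.19 (SE 0.046) the edgeR adjusted p of 0.0551 lay just outside the threshold. FOXM1 passed without STING-OE library 1 (edgeR adjusted p = 0.0147) and not without any other library (0.137 to 0.248). It overlaps the opposite-strand model ITFG2 by 2112 bases. Summed with the whole counts of its overlapping models, FOXM1 had a log2 fold change of −0.16 (edgeR adjusted p = 0.107). Of the 3 chromatin and transcription genes 0 fell and 0 rose in edgeR. At an unadjusted edgeR p under 0.05, 2 were lower and 0 higher, against 7.2% and 7.17% of all tested genes. DESeq2 called both of these lower, where it called 4.26% of genes lower. TOP2A, the topoisomerase that untangles sister chromatids, was the most highly counted member, at 707, 753 and 739 CPM in STING-OE libraries, against 814, 766 and 819.9 CPM in NC libraries (log2 fold change −0.13, SE 0.044, edgeR adjusted p = 0.176). HMGB2, a chromatin protein, had a positive estimate of 0.02 (SE 0.044) with overlapping groups.

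Per unit of transcript length, in the authors' FPKM, TOP2A was again highest at 107 ± 4.63 in STING-OE and 115 ± 4.97 in NC libraries. In STING-OE libraries CCNB1 was at 83.1 ± 2.78, ANLN at 88.1 ± 5.51, TPX2 at 84.9 ± 6.08 and CDC20 at 70.3 ± 4.84 FPKM. UBE2C had a slightly higher mean than CDC20 in STING-OE libraries, 71.6 ± 4.13 FPKM, and a lower one in NC libraries, 77.5 ± 0.27 FPKM. In NC libraries CCNB1 was at 93.0 ± 4.90, ANLN at 89.3 ± 1.71, TPX2 at 88.1 ± 5.87 and CDC20 at 83.3 ± 3.47 FPKM (SD, n = 3 each). The order of CCNB1, ANLN and TPX2 is within their spread. The lowest members were CDCA3 at 6.99 ± 0.2 in STING-OE and 7.78 ± 0.0656 in NC libraries and CDC25C at 7.75 ± 0.115 in STING-OE and 8.38 ± 0.805 in NC libraries. Over all members, the summed level was 7501, 7918 and 7822 CPM in STING-OE libraries 1, 2 and 3, against 8533, 8136 and 8448 CPM in NC libraries 1, 2 and 3. The means were 7747 ± 218 CPM in STING-OE and 8373 ± 209 CPM in NC libraries (SD, n = 3 each), and the groups did not overlap on this TMM scale. As a share of total counts the members took 0.753%, 0.809% and 0.786% in STING-OE libraries 1, 2 and 3, against 0.84%, 0.806% and 0.838% in NC libraries 1, 2 and 3, so STING-OE library 2 lay above NC library 2 and the groups overlapped.

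**Figure D3:**
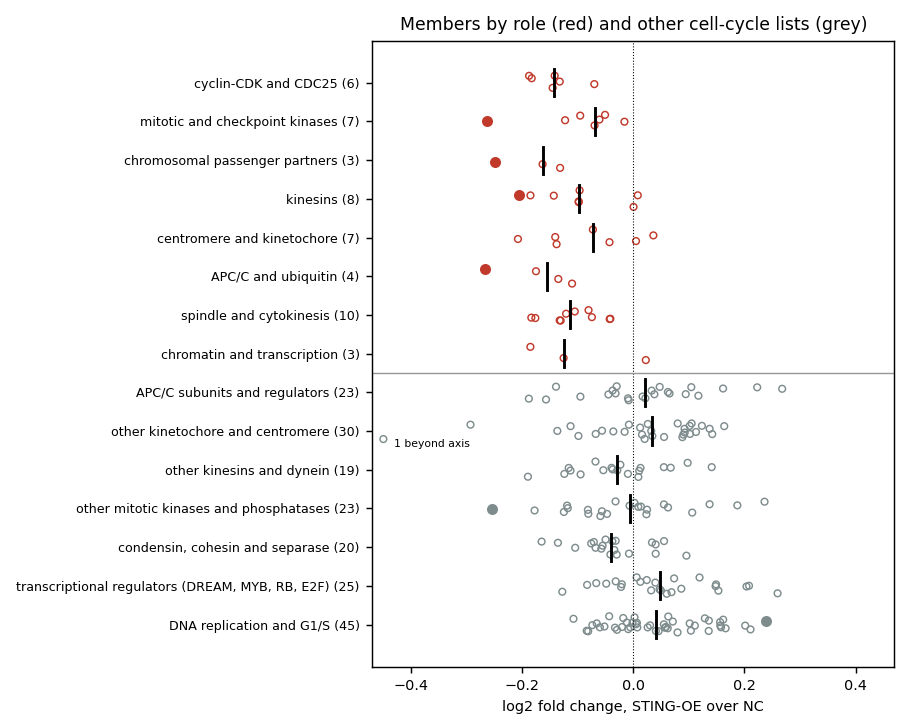
Log2 fold change, STING-OE over NC (horizontal axis), of each gene in the 8 role groups of the members (red, above) and in 7 lists of other cell-cycle genes (grey, below). Filled points passed the edgeR test, vertical bars are list medians, the number of genes stands in parentheses, and 1 gene, SPC24 at −0.87, is drawn at the left end.

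Other genes of the cell cycle, 185 genes in 7 lists, lay around 0. Of these 1 fell, 1 rose and 183 did not pass, and the median log2 fold change was 0.01. The fallen gene was CCNF, cyclin F, at 43.7, 42.5 and 42.7 CPM in STING-OE libraries, against 52.0, 48.9 and 52.8 CPM in NC libraries (log2 fold change −0.25, edgeR adjusted p = 0.0313). The risen gene was DTL, which directs the destruction of replication factors, at 134, 136 and 130.1 CPM in STING-OE libraries, against 115, 115 and 110.0 CPM in NC libraries (log2 fold change 0.24, edgeR adjusted p = 0.0164). In both genes the groups did not overlap. CCNF was called when STING-OE library 1 was left out and DTL when STING-OE library 1 or 3 was left out, and neither without any other library. CCNF was also not called with the GC and length correction, scaling to total counts alone or limma-voom (adjusted p of 0.0614, 0.05002 and 0.0671). With limma-trend on FPKM, the block, or the block with that correction, neither gene was called (adjusted p of 0.16, 0.0923 and 0.163 for CCNF and 0.111, 0.0736 and 0.0958 for DTL).

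List by list, the medians were 0.02 for 23 APC/C subunits and regulators, 0.03 for 30 other kinetochore and centromere genes, −0.03 for 19 other kinesins and dynein genes and −0.01 for 23 other mitotic kinases and phosphatases. They were −0.04 for 20 condensin, cohesin and separase genes, 0.05 for 25 regulators around DREAM, MYB, RB and E2F, and 0.04 for 45 genes of DNA replication and G1/S. In DNA replication and G1/S genes 10 of 45 had every STING-OE library above every NC library and 1 had every one below, against 0 and 24 among the 48 members. In the order given above, the remaining lists had 4, 4, 3, 1, 0 and 5 genes above and 2, 2, 3, 3, 2 and 0 below. The same share over all tested genes was 10.1% above and 9.73% below. The difference between the lists was not tested.

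The members split by base composition, and the split followed single libraries. The GC content of the longest transcript had a median of 43.2% in the members and 47.9% over all tested genes, and the low-GC and the high-GC 24 members ran from 35.3% to 43.2% and from 43.2% to 59.6%. Among the low-GC members STING-OE library 1 was the lowest of the 6 libraries in 21 of 24 members, STING-OE library 2 in 0 and STING-OE library 3 in 2. Among the high-GC members the counts were 7, 10 and 5. The median deviation from the NC mean among low-GC members was −0.17, −0.03 and −0.07 on the log2 scale in STING-OE libraries 1, 2 and 3. Among high-GC members it was −0.13, −0.18 and −0.13 in STING-OE libraries 1, 2 and 3. Across the 48 members the correlation of this deviation with GC content was 0.23, −0.65 and −0.47 in STING-OE libraries 1, 2 and 3, as a description over genes that share libraries.

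Over all genes the trends in the STING-OE libraries had the same signs, with a change per 10% of GC content of 0.032, −0.0676 and −0.0394 on the log2 scale in STING-OE libraries and 0.0138, 0.0437 and 0.0176 in NC libraries. When each library was corrected for GC content and length, 15 members were called lower and 0 higher, where 1.41% of all genes were called lower, and the median was −0.13. These 15 were ASPM, BIRC5, BUB1B, CCNA2, CCNB1, CCNB2, CENPE, CENPF, CKAP2, DLGAP5, KIF11, KIF14, KIF20A, PLK1 and TOP2A. PLK1 and KIF20A were called with and without the correction (adjusted p of 0.013 and 0.017 with it), whereas INCENP and CDC20 were not called with it. The part of base composition in the differences was not otherwise tested.

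**Figure D4:**
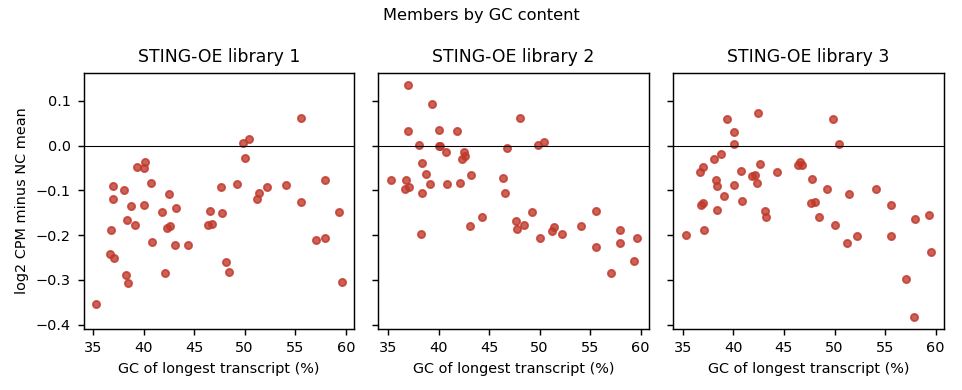
Log2 CPM of each member minus its NC mean (vertical axis) against the GC content of its longest transcript (horizontal axis, percent), with 1 panel per STING-OE library. Points fall to the right in STING-OE libraries 2 and 3 and not in STING-OE library 1, where low-GC members lie lowest.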

How the data were processed

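RNA was measured in 6 libraries, 3 of STING-OE and 3 of NC cells. Per the labels' protocols, total RNA was taken with Trizol and libraries were built with the Illumina TruSeq kit for RNA. Bowtie 0.12.2 is named per the submitters' processing notes. A counter, annotation, genome build and strand setting were not given in the sources used here. The authors deposited, per the file headers, read counts and FPKM values for each Ensembl gene. GENCODE v29 (GRCh38) holds 40903 of the 42307 gene identifiers. The deposited start or end lay within 1 base of its own for 89.8% of them, and coordinates are therefore printed as GRCh38. Depth was 71498790 to 76566375 counts per library, and all rows named a gene.

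Counts of all genes were fitted with edgeR 4.0.16 in R 4.3.3 (filterByExpr, TMM, robust quasi-likelihood test, two-sided, Benjamini-Hochberg over 21679 genes, threshold 0.05). SE values are approximate, being |log2 fold change|/√F. The procedure was also run on simulated data, but with planted changes larger than those of the members, so that run does not speak of changes of their size. Replicates differed beyond sampling noise in every pair. Both groups number their replicates alike, but the labels tie no number to a culture or day, and no block was used. Alternatives were other scalings and filters, DESeq2 1.42.0, limma-voom and limma-trend on log2(FPKM + 0.1) with limma 3.58.1, the block, a per-library spline correction for GC content and length of the longest transcript, sums with overlapping models, and leaving out each library. Members, role groups and lists were chosen with earlier results of these data known. Values in every library are given for called members and the 2 members of each role group with the smallest unadjusted p, and other members by their fold change. AURKB, KIF2C and PRC1 were given in full after their values were seen.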

Additional observations from a re-analysis of the deposited data

How the results depend on the processing

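The median log2 fold change of the members stayed negative under all 18 alternatives (−0.14 to −0.09). Under each, 0 members were called higher, where 0.0461% to 3.24% of all genes were called higher. At an unadjusted p under 0.05, 0 members were higher under each. By that rule the number of all genes higher ran from 1169 (of 22594 tested, without STING-OE library 2) to 2250 (of 21679 tested, total counts alone). The number called lower, 4 in edgeR, was not stable. It was 10 with the stricter filter (at least 1 CPM in 3 libraries), 15 with DESeq2, 2 with limma-voom, 0 with limma-trend on FPKM (17 at an unadjusted p under 0.05) and 15 after correcting for GC content and length. Over all genes 686, 924, 137, 13 and 507 were called in either direction in these settings, against 324 in the main fit. Of these 412, 525, 79, 3 and 306 were lower, against 193. The stricter filter tested 14979 genes, DESeq2 gave an adjusted p to 12310, and the others tested 21679. Without each library in turn the members called lower ranged from 0 to 8 and all genes called in either direction from 60 to 741. With the replicate number as a block 0 members (22 at an unadjusted p under 0.05) and 120 genes in either direction were called, and with that block and the GC and length correction 1 member and 103 genes. Deviations of same-numbered libraries correlated at 0.16, 0.102 and 0.0226. STING-OE library 1 correlated at −0.117 and −0.0755 with NC libraries 2 and 3. For STING-OE library 2 the values were −0.133 and 0.0583 with NC libraries 1 and 3. STING-OE library 3 had −0.038 and 0.0233 with NC libraries 1 and 2. The highest value was thus with the same number for libraries 1 and 2, and not for library 3. The numbers were not taken as pairs because no label ties them to a culture, and pairing was not tested further. The log2 fold change of STING1 was 0.61 but not past the threshold on FPKM (adjusted p = 0.0732). The stricter filter tested fewer genes, and the unadjusted p-values of members changed under it as well. The cause of the changes between settings was not tested.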

Other observations

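SPC24, the partner of SPC25 in the NDC80 complex and no member of the list, split the STING-OE libraries. It was counted 3509, 1077 and 1106 times in STING-OE libraries 1, 2 and 3, against 3043, 3419 and 3439 times in the NC libraries (log2 fold change −0.87, SE 0.574, edgeR adjusted p = 0.622). STING-OE library 1 was at the NC level and the other STING-OE libraries at 13.9 and 14.6 CPM, whereas SPC25 was at 30.2, 32.0 and 31.9 CPM in STING-OE and 30.8, 32.6 and 30.3 CPM in NC libraries. PMF1, of the MIS12 complex of the kinetochore, also had its highest STING-OE value in library 1, with 42.4, 29.3 and 25.6 CPM in STING-OE libraries, against 41.9, 34.8 and 42.6 CPM in NC libraries (edgeR adjusted p = 0.686). Both genes were chosen after their values were seen.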
